A study of Mus musculus with 4 samples.

Results

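The NKG2D ligand genes are the 5 genes Raet1d, Raet1e, H60b, H60c and Ulbp1, taken by gene name from a table of 47729 genes and 115220 transcripts. They hold 11 of those transcripts. The genes were chosen with their difference between the genotypes in these libraries already known, so that difference is described here without a test.

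NKG2D is an activating receptor of natural killer cells and some T cells. It binds cell surface proteins related to MHC class I, which many healthy cells carry at low levels and which stressed, infected, dividing or transformed cells can display. In the mouse these ligands are the RAE-1 proteins (Raet1 genes), the H60 proteins (H60 genes) and MULT1 (Ulbp1). The receptor, encoded by Klrk1, signals through the adaptor proteins DAP10 (Hcst) and DAP12 (Tyrobp). Mouse strains differ in the Raet1 and H60 copies they carry, and the reference genome GRCm38 is that of C57BL/6J, whereas the mice studied were BALB/c SKG. The symbols Raet1a, Raet1b, Raet1c and H60a matched no gene name used here and those copies were not analysed here. The levels and forms printed as Raet1d and Raet1e may therefore include reads of other RAE-1 copies of the mice studied, which was not tested.

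Neutrophils were sorted from bone marrow and spleen of SKG mice on the BALB/c background, which carry a mutation of the T cell kinase gene Zap70 in both groups. All mice had received curdlan, a fungal beta-glucan that sets off arthritis in this strain, 8 weeks before. The groups were wild type (2 libraries) and Mif -/- (2 libraries), Mif being the gene of the cytokine macrophage migration inhibitory factor. The labels do not say whether replicates were separate animals or pools, nor the shares of marrow and spleen cells, the age or the sex, so any p-value covers no more than the scatter of these samples, which could be technical. The values are FPKM, fragment numbers scaled to transcript length and library size, and are therefore per length. Differences are given as Mif KO minus wild type on the log2(FPKM + 1) scale, with the standard error from the spread of the replicates (n = 2 per group). On that scale differences of low genes are understated.

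Neither knockout library had a level of Mif above 0, and wild-type replicates 1 and 2 had 0.882 and 2.88 FPKM. All 13 neutrophil marker entries were expressed, among them Csf3r, the granulocyte colony-stimulating factor receptor, from 554 to 842 FPKM, and their summed level ranged from 109916 to 115983 FPKM; 1 of them, Ly6g, passed the test for genotype described below, higher in the knockout. In single-exon genes with 1 transcript, the lowest values of FPKM multiplied by length gathered at 1 smallest step (0.0181 and 0.0224 FPKM kb for the wild-type libraries, 0.00424 and 0.00463 FPKM kb for the knockout). By these steps wild-type replicate 1 was 1.23 times, knockout replicate 1 was 5.28 times and knockout replicate 2 was 4.83 times as deep as wild-type replicate 2. The labels' run names place the genotypes in different lanes, so genotype, depth and lane cannot be told apart. B cell and plasma cell markers moved with genotype (4 of 9 were tested and passed, all lower in the knockout, with a summed level of 205 and 172 against 36.1 and 42.1 FPKM). Erythroid markers summed to 5.07 and 20.7 against 17 and 16.7 FPKM and monocyte and macrophage markers to 48 and 65.3 against 55.5 and 62.1 FPKM, with wild-type replicate 1 lowest in both. The 7 natural killer cell markers summed to 0.261 and 1.02 against 0.112 and 0.227 FPKM; Gzma made up most of the wild-type sums (0.227 and 0.713 FPKM), and Klrd1 and Klra8 were listed at 0 in all 4 libraries. The 6 progenitor markers summed to 0.407 and 0.411 against 0.479 and 0.551 FPKM, nearly all of it Kit. The part of any of these cell types in the results below was not tested.

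All 5 ligand genes lie on chromosome 10 of GRCm38, the chromosome of Mif. Raet1e, H60b and Raet1d share a cluster between positions 22158569 and 22374139 on the plus strand, 53.5 to 53.7 Mb from the start of Mif. Ulbp1 (7440362 to 7473638) and H60c (3256208 to 3267771) lie apart from it, both on the minus strand. The annotated transcripts of the cluster interlock. The first exons of Raet1e-204 and H60b-201 overlap, and Raet1e-202 joins the exons of Raet1e to the last exon of Raet1d. Raet1d-201 and Raet1e-201 start from a matching pair of short first exons of 16 bases each, 188 kb apart, here called the proximal starts. Raet1d-202 and Raet1e-204 start further upstream.

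**Figure D1:**
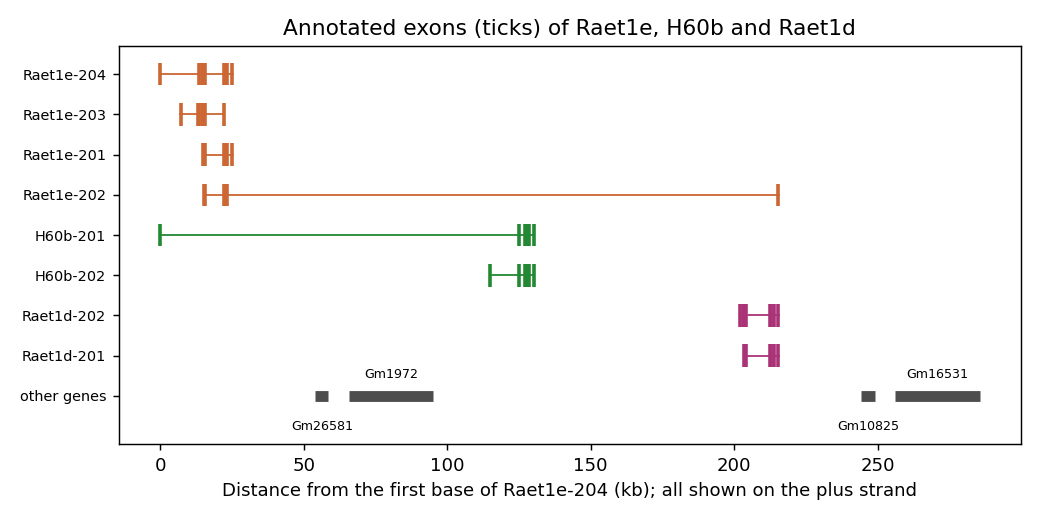
Annotated exons (vertical ticks) and introns (lines) of the Raet1e, H60b and Raet1d transcripts against distance in kb from the first base of Raet1e-204, with 4 further genes of the cluster as bars. Raet1e-202 reaches into the last exon of Raet1d, and the pair Gm26581 and Gm1972 behind Raet1e has its counterpart in Gm10825 and Gm16531 behind Raet1d.

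The bases before the proximal starts are shown because the transcripts that differed most between the genotypes begin there. The stretches cover chr10:22361646-22361860 for Raet1d and chr10:22173251-22173465 for Raet1e (plus strand, RefSeq, GRCm38.p6). They match at 212 of 215 bases, and capitals mark the 3 mismatches.
Raet1d proximal promoter: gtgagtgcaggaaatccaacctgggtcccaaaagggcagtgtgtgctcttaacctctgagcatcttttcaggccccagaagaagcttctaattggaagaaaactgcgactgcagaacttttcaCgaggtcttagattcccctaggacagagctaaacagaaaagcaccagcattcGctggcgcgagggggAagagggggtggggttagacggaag
Raet1e proximal promoter: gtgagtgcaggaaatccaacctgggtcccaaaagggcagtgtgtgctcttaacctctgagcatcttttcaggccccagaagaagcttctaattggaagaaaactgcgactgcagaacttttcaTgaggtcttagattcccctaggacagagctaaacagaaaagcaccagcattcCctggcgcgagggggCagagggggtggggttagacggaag
Over the whole 300-base windows around the 2 proximal starts, identity was 97.7%. The upstream start of Raet1e has an unrelated sequence (44.3% identity to the Raet1d window), shown for contrast from chr10:22158319-22158541 on the plus strand, with a GC box in capitals.
Raet1e distal promoter: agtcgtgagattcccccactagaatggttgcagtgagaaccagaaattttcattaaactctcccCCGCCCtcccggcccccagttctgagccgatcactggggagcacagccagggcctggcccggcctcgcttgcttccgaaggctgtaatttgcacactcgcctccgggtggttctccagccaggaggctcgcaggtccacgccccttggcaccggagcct

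RefSeq windows of 300 bases around the start of transcription matched 4 of the 5 genes, with 5 windows in all. The GC box GGGCGG, searched on both strands as all motifs here, occurred once in each proximal Raet1 window, beyond the stretch printed, and 3 times in the upstream Raet1e window and not in those of Ulbp1 and H60c. It occurs in 35.7% of all 32851 windows of that length. The heat shock element core GAANNTTC occurred once in each proximal Raet1 window and in none of the other 3, against 7.86% of all windows. The E2F letters TTTCCCGC (1.07% of all windows) and TTTGGCGC (0.514%) and the TATA box TATAAA (13.6%) were in none of the 5 windows. None of these motifs contains another. A match describes the letters only.

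The Raet1d and Raet1e products are close copies. The coding sequences of Raet1d-201 (747 bases) and Raet1e-201 (753 bases) were 93.5% identical, against 66.2% for H60b-202 and H60c-201 and 45.9% for Raet1d-201 and Ulbp1-202. The fifth exon, coding throughout, is printed because it shows how few bases can assign a read to one copy. It lies at chr10:22371367-22371630 in Raet1d and chr10:22181125-22181388 in Raet1e (plus strand, GENCODE M21 transcripts, GRCm38), with 253 of 264 bases identical and the 11 mismatches in capitals.
Raet1d exon: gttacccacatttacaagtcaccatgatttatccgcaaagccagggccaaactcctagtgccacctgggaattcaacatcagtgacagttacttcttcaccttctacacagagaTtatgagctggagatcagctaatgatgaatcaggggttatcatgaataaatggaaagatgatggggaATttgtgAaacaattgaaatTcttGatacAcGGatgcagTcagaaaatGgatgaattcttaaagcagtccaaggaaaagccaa
Raet1e exon: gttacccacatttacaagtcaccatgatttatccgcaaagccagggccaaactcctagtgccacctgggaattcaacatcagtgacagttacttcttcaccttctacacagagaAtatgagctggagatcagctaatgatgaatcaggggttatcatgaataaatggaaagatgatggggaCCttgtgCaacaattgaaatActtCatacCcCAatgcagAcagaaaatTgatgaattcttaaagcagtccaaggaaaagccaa
Most of the mismatches lie in the last part of the exon, and the first part has none. Of the 100-base windows of Raet1d-201, a length set to that of the reads, 32.7% occurred unchanged in a Raet1e transcript. For Raet1e-201 the share found in Raet1d transcripts was 14%, and for the joined Raet1e-202 it was 34.2%. Raet1e-202 holds the last exon of Raet1d itself (363 bases). Part of the 32.7% and of the 34.2% is therefore the same stretch of the genome, annotated to both genes. Raet1e-201 lacks that exon, so its 14% is sequence shared between separate copies. Reads from shared stretches of either kind may have been divided among the genes, so the levels of single copies are uncertain. Ulbp1-202 shared 0.457% of its windows with another gene and H60b-202 shared none, while H60c-201 shared 3.72% with Gm10825 and Gm26581, noncoding genes of the cluster described below.

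Raet1d and Raet1e, the 2 RAE-1 genes matched by name here, stood several-fold higher in both knockout libraries than in both wild-type libraries. For Raet1d, wild-type replicates 1 and 2 stood at 0.594 and 0.317 FPKM, and knockout replicates 1 and 2 at 2.87 and 3.23 FPKM. The groups did not overlap, and the wild-type libraries differed from each other more, in proportion, than the knockout libraries did. The difference was 1.48 ± 0.15 (SE, n = 2 per group), and the mean FPKM was 6.70-fold higher. In these bulk libraries a level cannot tell more RNA per cell from more cells that express the gene. Raet1e stood at 0.547 and 0.511 FPKM for wild type and at 2.30 and 2.57 FPKM for knockout. Here too both knockout libraries were higher, and both pairs of replicates lay close together. The difference was 1.17 ± 0.06 (SE, n = 2 per group), and the mean FPKM was 4.60-fold higher.

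Summed over both genes, the Raet1 level was 1.14 and 0.829 FPKM for wild type and at 5.17 and 5.80 FPKM for knockout. The difference was 1.71 ± 0.13 (SE, n = 2 per group). The test needed a group mean of 1 FPKM or more in at least 1 genotype, which 3 of the 5 genes had. Of these 3, 2 passed an adjusted p of 0.05 (limma, Benjamini-Hochberg), both higher in the knockout, and 3 had a positive difference. Over all 10221 genes tested, 0.342% passed, 0.157% higher and 0.186% lower in the knockout, and 54.2% had a positive difference. An unadjusted p under 0.05 was reached by 17.9% of all genes tested, the share against which such counts below stand. Raet1d and Raet1e were chosen from that very comparison, so nothing is read from the count. Both knockout libraries lay above both wild-type libraries in 29.6% of all genes tested. The count of all genes that passed, 35, was 0 without either knockout library and 2675 or 2938 without wild-type replicate 1 or 2.

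Ulbp1, which encodes MULT1, overlapped between the genotypes. It stood at 1.78 and 2.52 FPKM for wild type and at 2.40 and 2.19 FPKM for knockout. Both knockout values lie between the 2 wild-type values. The difference of 0.07 ± 0.18 (SE, n = 2 per group) became -0.09 when wild-type replicate 1 was left out and 0.24 when replicate 2 was. Nearly all of its level was in 1 transcript, Ulbp1-202, the other, Ulbp1-201, being listed above 0 in knockout replicate 2 alone (0.0211 FPKM).

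The H60 genes did not stand higher together with Raet1. H60b stood at 0.557 and 0.560 FPKM for wild type and at 0.407 and 0.488 FPKM for knockout, all of it in transcript H60b-202. Both knockout libraries were lower, by -0.11 ± 0.04 (SE, n = 2 per group), and its mean was under the 1 FPKM needed for testing. H60b-201, which begins at the upstream start of Raet1e, was listed at 0 in all 4 libraries. H60c, known from skin, was listed at 0 in both wild-type libraries, and its knockout values were 0.00847 and 0.00950 FPKM. For H60c-201, the level of 3 of the smallest steps was 0.0193 FPKM in wild-type replicate 1 and 0.0238 FPKM in replicate 2, above the knockout values, so a difference was not detectable at this depth. Gm10825 and Gm26581, with which H60c-201 shares windows, also stood higher in the knockout, and their part in its values was not tested.

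**Figure D2:**
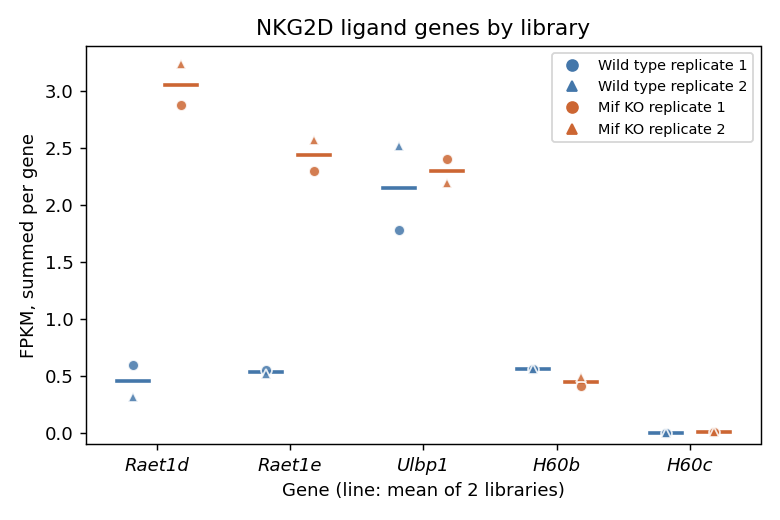
FPKM summed per gene for the 5 NKG2D ligand genes, by library (points; circles replicate 1, triangles replicate 2) with the mean of each genotype (lines). Raet1d and Raet1e lie between 2.30 and 3.23 FPKM in the knockout and between 0.317 and 0.594 FPKM in the wild type, while Ulbp1 overlaps between genotypes.

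The order of the ligands by level thus differed between the genotypes. In the wild type Ulbp1 was highest, above the others in both libraries. Raet1d, H60b and Raet1e followed, the range of Raet1d containing those of the other two, and H60c was listed at 0. In the knockout Raet1d was highest, Raet1e and Ulbp1 overlapped behind it, and H60b and then H60c were lowest. Raet1d and Raet1e made up 32.8% and 21.2% of the summed FPKM of the 5 genes in the wild-type libraries and 64.7% and 68.3% in the knockout libraries. Summed over all 5, the level was 3.48 and 3.90 FPKM in the wild type and 7.99 and 8.48 FPKM in the knockout.

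By transcript, the higher Raet1d level lay in 1 form. Raet1d-201, from the proximal start, was at 0.0864 and 0.00873 FPKM for wild type and at 2.50 and 2.92 FPKM for knockout. It made up 14.6% and 2.75% of the gene's FPKM in the wild type and 87% and 90.4% in the knockout. Raet1d-202, from the upstream start, was at 0.507 and 0.308 FPKM for wild type and at 0.374 and 0.309 FPKM for knockout. Its ranges overlapped, so the higher knockout level of Raet1d-201 was not seen in Raet1d-202. In units of the smallest step, Raet1d-201 held 6.05 and 0.496 steps in the wild type and 749 and 801 in the knockout. Steps are not scaled for depth, and the knockout libraries were 5.28 and 4.83 times as deep as wild-type replicate 2. Raet1d-202 thus held 39.8 and 19.6 steps in the wild type and 126 and 95.2 in the knockout. H60b-202, lower in knockout FPKM, held 33.2 and 27.0 against 104 and 114 steps.

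Raet1e showed the matching form in the knockout and others beside it. Raet1e-201, from the proximal start, was listed at 0 in both wild-type libraries and at 0.603 and 0.966 FPKM in the knockout. For this transcript the level of 3 steps was 0.0427 FPKM in wild-type replicate 1 and 0.0527 FPKM in replicate 2, well under the knockout values. Raet1e-204, from the upstream start, was at 0.301 and 0.463 FPKM for wild type and at 0.986 and 0.900 FPKM for knockout. It did not overlap either, so in Raet1e the form from the upstream start also stood higher. By annotation Raet1e-204 matches Raet1d-202 except at its outermost exons. Both hold exons of 70, 91 and 118 bases and end in exons of 264, 170 and 363 bases. Between these lies an exon of 255 bases in Raet1e-204 and of 249 bases in Raet1d-202. Before them Raet1e-204, with 9 exons, has exons of 150 and 98 bases. Raet1d-202, with 8 exons, has an exon of 100 bases there. Of the 100-base windows of Raet1d-202, 36.0% occurred unchanged in a Raet1e transcript. Whether reads of the upstream forms were divided between the genes was not tested. The joined form Raet1e-202 was at 0.246 and 0.0488 against 0.707 and 0.703 FPKM, and Raet1e-203 was listed at 0 throughout.

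Taken over both genes, the 2 forms from the proximal starts made up 7.57% and 1.05% of the Raet1 FPKM in the wild type and 60% and 67% in the knockout. The remaining Raet1 transcripts together stood at 1.05 and 0.820 against 2.07 and 1.91 FPKM. The division between forms rests on few bases. Raet1d-201 and Raet1e-201 each hold 16 bases (1.26% of their length) at genome positions that no other ligand transcript covers. Raet1d-202 holds 170 such bases and Raet1e-204 holds 20, and Raet1e-202 holds none. These counts are of positions, not of unique sequence. The 16 bases of each lie in windows that were 97.7% identical, and the 170 include an exon of 70 bases with a counterpart of that length in Raet1e-204. In the authors' deposited table, the fold was 3.54 for Raet1d-201, 0.955 for Raet1d-202, 1.78 for Raet1e-201 and 1.41 for Raet1e-204.

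**Figure D3:**
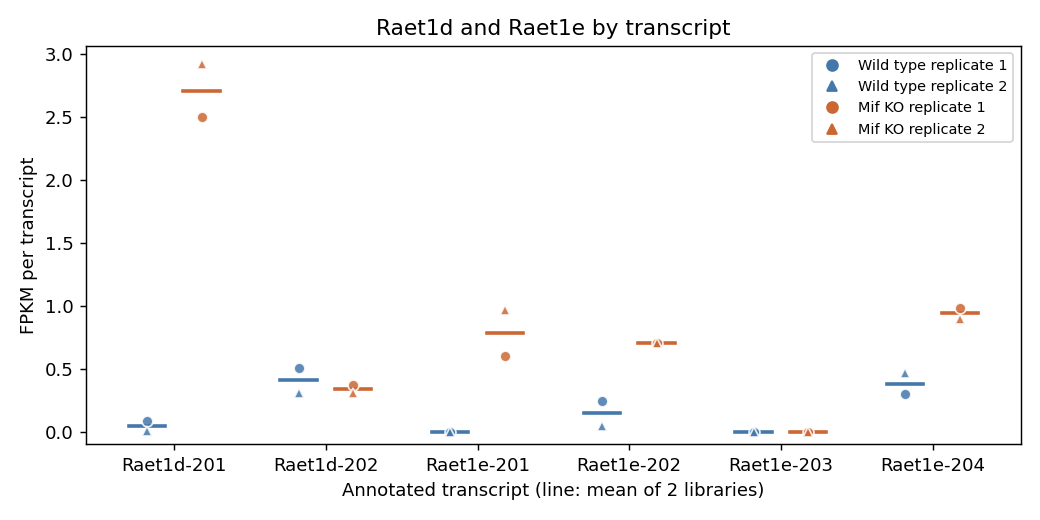
FPKM of each annotated Raet1d and Raet1e transcript by library (points; circles replicate 1, triangles replicate 2) with the mean of each genotype (lines). Raet1d-201 lies at 2.50 and 2.92 FPKM in the knockout and under 0.1 FPKM in the wild type, while Raet1d-202 overlaps.

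Genes beside the ligand genes differed in direction. Among the 51 genes with a start within 500 kb of a ligand gene, 19 were tested and 0 passed (limma, adjusted over all genes; 5 had an unadjusted p under 0.05, against 17.9% of all genes), 7 of them with a positive difference. Their median difference was -0.09, against 0.02 over all genes tested. In 4 of the 19 both knockout libraries lay higher and in 8 both lay lower, against 29.6% and 23.1% of all genes tested. Of the 19, 9 lie beside Raet1e, H60b and Raet1d (3 with a positive difference, median -0.11) and 10 beside H60c or Ulbp1 (4 with a positive difference, median -0.07). Without wild-type replicate 1 or wild-type replicate 2, 6 of the 19 passed, where 26% and 28.8% of all genes did. The lowest p belonged to the antisense RNA Gm26740, which overlaps H60b on the other strand (4.41 and 4.54 against 2.70 and 2.82 FPKM; limma adjusted p = 0.108). Gm26528, a pseudogene inside the H60b locus, was at 12.7 and 11.99 against 6.11 and 7.98 FPKM (limma adjusted p = 0.126). H60b and these 2 genes were thus all lower in both knockout libraries. Gm26528 lies between exons of H60b and shares no exon base with it. The strand setting of the counting is not given in the sources used here. Whether reads of Gm26740 were kept apart from those of the genes it overlaps was not tested. The other 2 genes with the lowest p were Plekhg1 near H60c (1.46 and 1.37 against 2.18 and 2.42 FPKM; limma adjusted p = 0.146) and Ppil4, a cyclophilin gene near Ulbp1 (13.1 and 13.5 against 10.9 and 11.3 FPKM; limma adjusted p = 0.210).

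Among the neighbours with a mean under 1 FPKM, 4 repeated copies stood with Raet1d and Raet1e; they were singled out after their values were seen and were not tested. The long noncoding RNA Gm26581 starts 28.7 kb behind the end of Raet1e-201 and Gm10825 starts 28.7 kb behind that of Raet1d-201, and their transcripts are 99.6% identical. Gm26581 stood at 0.0733 and 0.201 FPKM for wild type and at 0.752 and 0.810 FPKM for knockout. Gm10825 stood at 0.0934 and 0.171 against 0.798 and 0.812 FPKM. Both were higher in both knockout libraries, and the 2 copies stood at nearly equal levels there. At such identity reads may have been divided between the 2 copies, which was not tested, so their single levels are uncertain. The pseudogenes Gm1972 and Gm16531, 40.4 kb behind the same ends and 99.1% identical, stood at 0.155 and 0.334 against 0.510 and 0.681 FPKM and at 0.152 and 0.297 against 0.374 and 0.460 FPKM. The same limit holds for this pair. On the far side of Raet1d, Slc2a12, a sugar transporter gene also singled out after its values were seen, stood at 0.252 and 0.360 FPKM in the wild type and was listed at 0 in both knockout libraries. Of genes chosen in the same way, Sgk1, a kinase gene before the cluster (40 and 51.6 against 40.5 and 43.8 FPKM), and Tbpl1 behind it (11.7 and 11.6 against 11.4 and 12.5 FPKM) overlapped between genotypes.

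**Figure D4:**
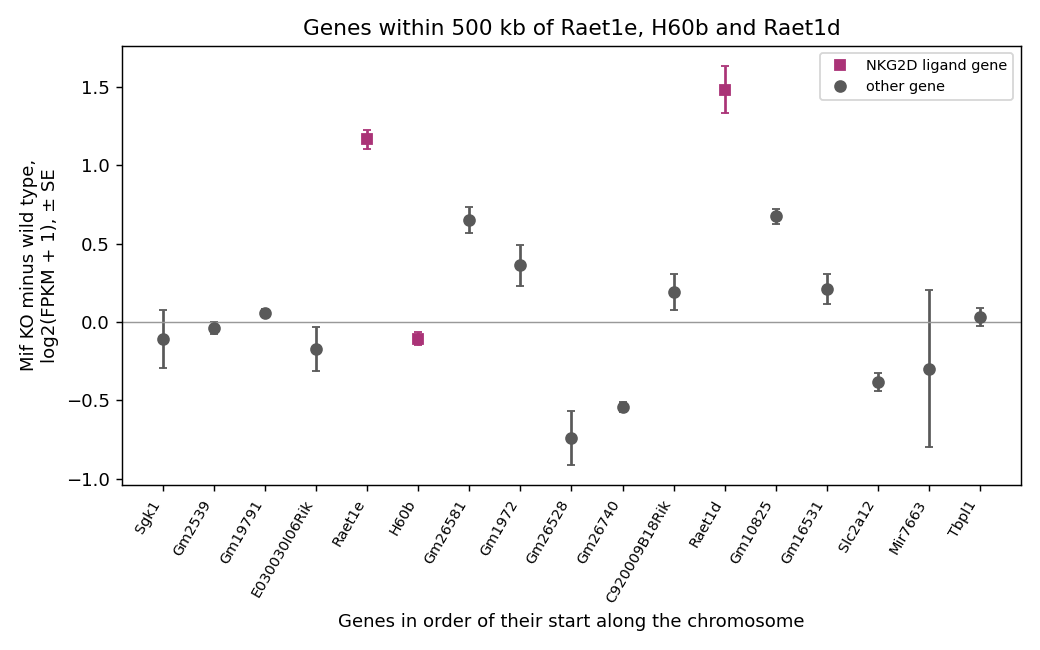
Difference between knockout and wild type on the log2(FPKM + 1) scale with its standard error (n = 2 per group) for genes within 500 kb of Raet1e, H60b and Raet1d that reach 0.2 FPKM in at least 1 library, in order of their starts. Raet1e, Raet1d and the copies Gm26581, Gm1972, Gm10825 and Gm16531 lie above 0, while H60b, Gm26528 and Gm26740 lie below.

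The receptor itself was near the floor in these neutrophils. Klrk1 stood at 0 and 0.0638 FPKM for wild type and at 0.0102 and 0.0279 FPKM for knockout. Its adaptors, which other receptors of myeloid cells also use, were well expressed and did not pass. Hcst stood at 51.2 and 60.7 against 63.6 and 60.8 FPKM and Tyrobp at 994 and 1117 against 993 and 1030 FPKM. Of the 12 genes of the receptor and its signalling that were tested, 0 passed (limma) and 0 had an unadjusted p under 0.05, with 6 positive differences and a median of -0.01. Beside Hcst, the lowest p values among them belonged to the kinase subunit Pik3cb (30.1 and 28.6 against 30.9 and 34.2 FPKM), the adaptor Crkl (15.9 and 15.4 against 16.6 and 17.5 FPKM) and the adaptor Lcp2 (88.2 and 98.1 against 83.1 and 88.7 FPKM).

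Genes that act on the ligands were also below the threshold. Of 5 genes of ligand shedding and trafficking tested, 0 passed (limma) and 1 had an unadjusted p under 0.05 (17.9% of all genes), the gelatinase Mmp9 (1066 and 997 against 1258 and 1263 FPKM; limma adjusted p = 0.160). The sheddases Adam10 (31.7 and 27.2 against 31 and 33.7 FPKM) and Adam17 (26.8 and 27.8 against 25 and 27.8 FPKM) overlapped, and the disulfide isomerase Pdia6 stood at 5.71 and 5.003 against 4.43 and 4.72 FPKM. Of 16 regulators of ligand expression tested, 0 passed (limma) and 1 had an unadjusted p under 0.05, no larger a share than the 17.9% of all genes. That was Trp53, the p53 gene, at 3.06 and 3.59 against 4.70 and 4.85 FPKM (limma adjusted p = 0.158). The DNA damage kinase Chek2 stood at 1.51 and 1.94 against 2.39 and 2.29 FPKM, Hsf1, the heat shock factor, at 2.00 and 2.57 against 2.70 and 2.89 FPKM, and Stat3 at 117 and 119 against 105 and 110 FPKM. This list had a median of 0.04.

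The RAE-1 proteins are held on the membrane by a glycolipid (GPI) anchor. Of 19 genes of GPI anchor synthesis and attachment tested, 0 passed (limma), 4 had an unadjusted p under 0.05, and 11 of the 19 differences were positive (median 0.02). That share is near the 17.9% of all genes. The 4 were Pigt (7.27 and 6.79 against 10.6 and 9.89 FPKM; limma adjusted p = 0.122), Gpaa1 (5.99 and 6.70 against 9.05 and 9.49 FPKM; limma adjusted p = 0.127), Pigs (8.92 and 9.08 against 11.7 and 11.4 FPKM; limma adjusted p = 0.152) and Dpm3 (3.63 and 6.63 against 9.91 and 9.49 FPKM; limma adjusted p = 0.191). Pigt, Gpaa1 and Pigs encode subunits of the transamidase that attaches the anchor, and Dpm3 a subunit of the enzyme that makes its mannose donor. Both knockout libraries were higher in each of the 4, which were picked by their p. Over all 19, both knockout libraries lay higher in 5 and lower in 2. The shares over all genes tested were 29.6% and 23.1%.

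Ligands of other natural killer cell receptors, which include MHC class I, had 11 tested genes. Of these, 0 passed (limma) and 0 had an unadjusted p under 0.05. The difference was positive in 10, against 54.2% of all genes tested, with a median of 0.35. In 8 both knockout libraries lay higher and in 0 lower, against 29.6% and 23.1% of all genes tested. Without wild-type replicate 1 the median was 0.10, and without wild-type replicate 2 it was 0.61. The lowest p values belonged to the adhesion ligand Icam1 (0.704 and 2.14 against 2.51 and 2.85 FPKM), Bag6 (41.3 and 46 against 49.99 and 49.2 FPKM), H2-Q7 (5.16 and 17.9 against 25.7 and 18.9 FPKM) and the MHC class I light chain B2m (553 and 803 against 852 and 869 FPKM). Wild-type replicate 1 was lowest in these 4. In Raet1d and Raet1e it was instead wild-type replicate 2 that was lowest. Of the 82 genes tested over these 5 lists and the genomic neighbours, 0 passed with all libraries. When wild-type replicate 1 was left out 18 passed (22%, against 26% of all genes), and when wild-type replicate 2 was left out 27 did (32.9%, against 28.8% of all genes).

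**Figure D5:**
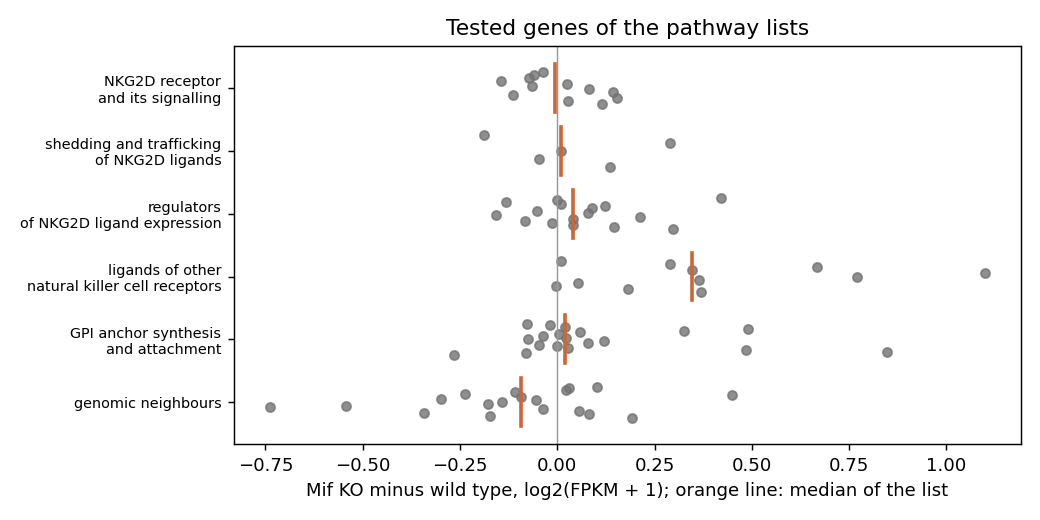
Difference between knockout and wild type on the log2(FPKM + 1) scale for each tested gene (points) of 5 pathway lists and of the genomic neighbours, with the median of each list (orange line). The medians lie between -0.09 for the genomic neighbours and 0.35 for the ligands of other natural killer cell receptors.

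The genes whose values over the 4 libraries were most like those of Raet1d, by distance between log2(FPKM + 1) values centred on each gene's mean and among 8174 named protein-coding genes tested, were Ly6c1 (distance 0.187), Smpd5 (0.248) and Raet1e (0.360). For Raet1e they were Mgat5 (0.0629), Cabin1 (0.120) and Elovl7 (0.146). The genotype difference that chose the 2 genes enters this distance. Elovl7, a fatty acid elongase gene, stood at 0.262 and 0.202 against 1.45 and 1.57 FPKM.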

How the data were processed

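RNA of sorted neutrophils was sequenced in 4 libraries, 2 wild type and 2 Mif KO. The authors deposited FPKM values per transcript and library and, per the file headers, a fold, a p-value and a q-value for each transcript. The submitters' processing notes name GRCm38, HISAT2 2.1.0, SAMtools 1.9, StringTie 2.1.4 and R 3.6.1, without saying what each did. Which annotation release, strand setting and filters were used is not given in the sources used here. The deposited fold equals the difference of mean log2(FPKM + 1), knockout minus wild type, as a ratio (largest gap 6.4e-14 in log2). The deposited p-values and q-values were not used.

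FPKM was summed per gene identifier. Since a 0 may stand for an estimate that failed, such values are called listed at 0. The test, limma 3.58.1 in R 4.3.3, took genes whose group mean reached 1 FPKM in at least 1 genotype (trended prior, pseudocount 1, threshold 0.05 after Benjamini-Hochberg adjustment over all genes), after a check on simulated data. The files give no counts, so no counting interval is given. Steps were read from single-exon genes with 1 transcript, within 2% of 1 step, and give relative depth only. Positions, exons and transcript sequences are those of GENCODE M21 (GRCm38); 114332 of the transcripts and 47310 of the genes were found there.

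The members and the lists were chosen with earlier results of these data known. Named genes are the members, Klrk1, Hcst, Tyrobp, Mif, per list the 4 genes with the lowest p, and the 3 genes most like Raet1d and Raet1e each. The alternatives tried were other pseudocounts, filters and scalings, a constant prior, a replicate block, values per transcript, and leaving out each library.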

Additional observations from a re-analysis of the deposited data

How the results depend on the processing

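Raet1d and Raet1e kept their direction under every alternative run. Both knockout libraries lay above both wild-type libraries in these genes. Other pseudocounts, filters or priors, a replicate block or a left-out library could therefore not have reversed it. The summed Raet1d and Raet1e difference moved from 1.71 to 2.38 with a pseudocount of 0.1, to 2.02 with 0.5 and to 2.04 after rescaling without 7SL and 7SK RNA, and ranged from 1.60 to 1.82 leaving out 1 library. The difference summed over all 5 ligand genes was 0.98, against 1.14 with a pseudocount of 0.1 and 1.06 with 0.5, and ranged from 0.91 to 1.04 leaving out 1 library. Taken by the transcript with the highest mean, Raet1e differed by 0.49 and Raet1d by 1.82. The 35 genes past the threshold became 0 with no filter on low values, 20 with quantile normalization and 23 after rescaling, and from 0 to 2938 leaving out 1 library, where the lone library is assumed to vary like the other genotype. The share higher in the knockout was 45.7%, against 55% with quantile normalization, and 34.5% and 55.2% without wild-type replicate 1 and 2. For pathway and neighbour genes that range was 0 to 27, and 0 passed under every other alternative run. The replicate numbers shared by the groups were not a pairing that the labels explain (correlation of replicate differences over genes 0.0065), and the replicate block gave 34 genes past the threshold. The SD of log2 differences was 0.337 between wild-type and 0.145 between knockout replicates, and the shallower wild-type libraries limit values near their floor.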

Other observations

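Of the 35 genes past the threshold, 4 of 448 tested lie on chromosome 10, all higher in the knockout: Raet1d, Raet1e, Cabin1 (6.50 and 6.82 against 15 and 15.4 FPKM) and Prtn3, the proteinase 3 gene (3.56 and 3.92 against 10.8 and 9.49 FPKM). That is 0.893% of those tested on chromosome 10 and 0.317% of the 9773 tested elsewhere. The tally was made after the values were seen, and Raet1d and Raet1e entered it because of their difference. Cabin1 ends at 75764341 and Prtn3 starts at 79874476 on GRCm38, while Mif lies from 75859353 to 75860240.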
